A study of Mus musculus with 24 samples.

Results

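The 7 genes described here encode receptors for γ-aminobutyric acid (GABA) and the enzymes that make it, as measured in the cochleae of mice with and without the α9 nicotinic receptor subunit. Gabra2, Gabra3, Gabrb2 and Gabrd encode the α2, α3, β2 and δ subunits of GABA-A receptors, Gabbr1 encodes a subunit of the GABA-B receptor, and Gad1 and Gad2 encode the 2 forms of glutamic acid decarboxylase. All probe sets annotated with 1 of these symbols alone were taken, which gave 22 of 45101 probe sets on the array, namely 5 for Gabra2, 5 for Gabrb2, 4 for Gabbr1 and 2 for each of the other 4 genes. Probe sets were taken by symbol alone, but the genes were chosen with earlier results of these data known. The study had singled out several of these genes for the P60 comparison of the same arrays, so their P60 counts are not independent evidence of a direction. Its list of genes higher in α9−/− cochleae at P60 also held Gabra6, used below as a sign of cerebellar tissue. Beside the arrays, the study reported higher levels of several GABA receptor subunits by qPCR, and more β2 protein.

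Total RNA was extracted from pooled cochleae of α9−/− mice, which lack a functional Chrna9 gene throughout the body, and of wild type mice, at postnatal days 3, 7, 13 and 60 (P3, P7, P13 and P60). Both genotypes were 129S6 x CBA/CaJ hybrids that had been backcrossed to CBA/CaJ for at least 7 generations. There were 24 arrays, 3 for each genotype at each age, each of a separate pool, and no array was dropped or imputed. The design text gives 3 to 5 mice for a pool, while the methods count cochleae, with fewer to a pool at P13 and P60 than at P3 and P7, and these statements were not reconciled. Chrna9, the deleted gene, has 3 probe sets. At P60 its 1430086_at gave 5.27 to 5.35 in α9−/− and 5.61 to 6.33 in wild type cochleae, the other 2 overlapped, and whether these probe sets lie in the deleted part of the gene was not known. At P3, P7 and P13 the groups overlapped on 1430086_at, with differences of 0.05, 0.13 and -0.06. At P13, 1447214_at gave 3.6 to 4.15 in α9−/− and 4.53 to 5.08 in wild type cochleae, without overlap. At P3, 1445615_at did not overlap either, with 3.68 to 4.14 in α9−/− and 4.18 to 4.38 in wild type cochleae. Values were deposited log2 signals and were 2.35 or above. Array lower quartiles lay at 4.73 to 5.32, so probe sets under about that level were among the dimmest on an array.

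GABA is the main inhibitory transmitter of the adult brain. GABA-A receptors are chloride channels built of 5 subunits, whose α and δ types set where the receptor sits and how it responds, while GABA-B receptors act through G proteins. In the cochlea, GABA is found in part of the efferent fibers that run from the brainstem to the hair cells, beside acetylcholine, the transmitter that acts on the α9-containing receptor. In the cerebellum, granule cells make the α6 subunit (Gabra6) and the δ subunit, and Purkinje cells and interneurons make glutamic acid decarboxylase. Gabra6 is used here as a sign of cerebellar tissue carried over at dissection, since its expression is largely limited to granule cells of the cerebellum and of the cochlear nucleus. The study's methods state that pieces of cerebellum were taken off each cochlea at dissection.

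Gabra6 and Gabrb2 are neighbors on mouse chromosome 11 (GRCm38.p6), where Gabra6 spans 42306437 to 42321072 and Gabrb2 spans 42419515 to 42632591, 98.4 kb apart. Gad1 (chromosome 2, 70561303 to 70602014) and Gad2 (chromosome 2, 22621015 to 22693877) share a chromosome. Gabra2 lies on chromosome 5 (70958392 to 71095849), Gabrd on chromosome 4 (155384979 to 155398098), Gabbr1 on chromosome 17 (37045966 to 37074305) and Gabra3 on the X chromosome (72432676 to 72656919).

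The RefSeq promoter table of this build, which holds 250 bases before and 50 after each start, had an entry for 6 of the 7 genes. The promoters of Gabrb2 (its first start), Gad1, Gad2 and Gabra6 are shown because probe sets of Gabrb2, Gad1 and Gad2 varied between pools of an age along with Gabra6. Each is printed 5′ to 3′ on the strand of its gene, with capitals for the GC box GGGCGG and the TATA box TATAAA on either strand. These motifs occurred in 35.7% and 13.6% of the 32851 promoters in the table.
Gabrb2 promoter (chr11:42420190-42420489, plus strand): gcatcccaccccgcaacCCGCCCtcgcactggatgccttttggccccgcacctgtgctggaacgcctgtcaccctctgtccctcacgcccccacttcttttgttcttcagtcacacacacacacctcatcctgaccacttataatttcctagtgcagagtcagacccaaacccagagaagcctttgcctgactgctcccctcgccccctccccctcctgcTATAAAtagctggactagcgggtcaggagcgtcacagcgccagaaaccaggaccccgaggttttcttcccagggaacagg
Gad1 promoter (chr2:70561879-70562178, plus strand): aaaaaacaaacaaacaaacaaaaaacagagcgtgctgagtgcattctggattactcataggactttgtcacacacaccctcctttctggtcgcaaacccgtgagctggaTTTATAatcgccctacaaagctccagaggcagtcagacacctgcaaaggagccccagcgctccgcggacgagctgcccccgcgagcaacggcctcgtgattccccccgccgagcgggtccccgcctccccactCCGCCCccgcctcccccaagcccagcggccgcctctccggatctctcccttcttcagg
Gad2 promoter (chr2:22622077-22622376, plus strand): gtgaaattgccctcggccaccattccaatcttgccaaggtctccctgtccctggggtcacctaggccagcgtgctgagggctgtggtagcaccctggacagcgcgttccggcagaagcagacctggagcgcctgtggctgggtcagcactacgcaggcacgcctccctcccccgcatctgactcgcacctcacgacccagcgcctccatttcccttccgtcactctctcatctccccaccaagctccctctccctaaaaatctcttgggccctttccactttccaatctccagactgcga
Gabra6 promoter (chr11:42321023-42321322, minus strand): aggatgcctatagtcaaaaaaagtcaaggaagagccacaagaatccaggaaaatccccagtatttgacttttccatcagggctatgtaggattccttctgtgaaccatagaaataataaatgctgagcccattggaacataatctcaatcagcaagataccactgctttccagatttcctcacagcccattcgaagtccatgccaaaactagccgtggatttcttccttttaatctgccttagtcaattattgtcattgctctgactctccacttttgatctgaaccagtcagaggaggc
The Gabrb2 promoter held 1 GC box and 1 TATA box, the TATA box 30 bases before the start. The Gad1 promoter also held 1 of each, with its TATA box 141 bases before the start. Neither motif was found in the Gad2 and Gabra6 windows. The number of CG dinucleotides was 21 for Gad1, 14 for Gad2, 11 for Gabrb2 and 2 for Gabra6, against a median of 7 over the table. Neither motif was shared by all 4 windows.

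Arrays differed in control signal at the 5′ end relative to the 3′ end, and the reason was not tested. The Gapdh control probe set at the 3′ end exceeded the one at the 5′ end by 6.30 to 7.69 in 5 arrays, and by -0.15 to 2.43 in the other 19. The 5 arrays were α9−/− replicate 2 and wild type replicate 1 at P3, wild type replicates 1 and 2 at P13, and wild type replicate 1 at P60. At P13 and at P60 this measure was lower in every α9−/− array than in every wild type array, so at those ages it cannot be told apart from genotype. Signs of the labelled tissue were present, since Otof, needed for transmitter release from inner hair cells, had log2 signals of 7.68 to 7.87 in α9−/− and 8.0 to 8.1 in wild type cochleae at P60. The outer hair cell gene Slc26a5 gave only 4.25 to 4.42 in α9−/− and 4.30 to 4.68 in wild type cochleae at P60, below the lower quartile of every array.

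A filter kept the most variable 40% of probe sets, judged on all 24 arrays, and 16 of the 22 passed it, at least 1 for every gene. Genotypes were compared at each age with limma, and calls needed a log2 difference of 1.5 or more together with an adjusted p under 0.05. At P60, 0 of the 16 were called in either direction, and over all 18041 probe sets tested 0% were called higher and 0% lower. In α9−/− cochleae 5 of the 16 were higher with an unadjusted p under 0.05 and 0 were lower, while 4.48% of all tested probe sets were higher and 1.62% lower at that level. Over all 22 probe sets the median difference was 0.61, beside -0.08 over all probe sets of the array. Of the 22, 17 had a difference above 0, and none passed the adjusted test. Below the filter at P60 were 2 dim Gabra2 probe sets (differences -0.14 and -0.27), Gabra3 1421263_at (0.05), Gabrd 1457763_at (0.05), Gabbr1 1425595_at (-0.13) and Gad2 1421978_at (0.46), which are given without a test.

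The largest P60 difference belonged to Gabrb2, the β2 subunit that pairs with α subunits in most adult GABA-A receptors. At probe set 1450319_at the log2 signals were 7.66, 7.35 and 5.28 in α9−/− cochleae, against 3.65, 3.57 and 4.75 in wild type cochleae. The groups did not overlap, and the third α9−/− pool lay much nearer to wild type than the other two. With 3 pools in each group, limma gave a difference of 2.78 with a standard error of 0.65 (adjusted p = 0.776). At 1429685_at the signals were 10.61, 10.35 and 8.49 in α9−/− and 6.74, 7.10 and 8.59 in wild type cochleae, so that limma gave 2.34 ± 0.67 (standard error, adjusted p = 0.776). Here α9−/− replicate 3 and wild type replicate 3 were level. The other 3 Gabrb2 probe sets, 1428203_at, 1428204_at and 1428205_x_at, differed by 0.89, 0.91 and 0.64, with overlapping groups, and 1428203_at by 1.36 without the low Gapdh 5′ array. Probe sets of the same gene therefore gave P60 differences from 0.64 to 2.78. Of all probe sets on the array, 3.77% had every α9−/− value above every wild type value at P60, and 2 of the 22 GABA probe sets did.

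A pair of settings changed the Gabrb2 calls. When the variance filter was taken over the 6 arrays of P60 in place of all 24, 1450319_at (adjusted p = 0.00158) and 1429685_at (adjusted p = 0.0138) were called by limma. In that fit 0.704% of tested probe sets were called higher. Its filter used the variance of the same 6 arrays, to which a genotype difference adds. The adjusted p values of that fit therefore depend on the selection. With array weights, 1450319_at was called (difference 3.27, adjusted p = 0.0323 from limma), beside 0.211% of all tested probe sets. Without the low Gapdh 5′ array the differences were 2.60 and 1.97, and both adjusted p values were 0.971.

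Gabrd encodes the δ subunit of receptors outside synapses, and its probe set 1449980_a_at measured 8.50, 7.52 and 6.72 in α9−/− cochleae at P60. In wild type cochleae it measured 5.38, 5.01 and 7.70. The groups overlapped, since the third wild type pool was above 2 of the α9−/− pools, and limma gave a difference of 1.55 with a standard error of 0.74 (adjusted p = 0.776). Without the low Gapdh 5′ array it was 1.22. At the other ages both genotypes stayed between 3.55 and 5.56 on this probe set. The second Gabrd probe set, 1457763_at, was dim in every group and differed by 0.05 at P60.

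For Gabra2, the α2 subunit, 1421738_at gave 7.02, 6.88 and 5.79 in α9−/− and 4.09, 5.99 and 4.82 in wild type cochleae at P60, so that limma gave 1.60 ± 0.56 (standard error, adjusted p = 0.776). Without the low Gapdh 5′ array it was 1.16. Its probe set of highest mean signal, 1455444_at, gave 7.32, 7.37 and 5.34 in α9−/− and 7.21, 5.57 and 6.10 in wild type cochleae, a difference of 0.38, and 1443865_at differed by 0.68. Wild type replicate 1, the array of low Gapdh 5′ signal, was the lowest wild type value on the first probe set and the highest on the second. Gabra3, the α3 subunit, had small P60 differences, 0.05 at 1421263_at and 0.10 at 1436957_at. At P3 its 1436957_at signals were 6.04, 6.59 and 5.90 in α9−/− and 5.80, 5.80 and 5.66 in wild type cochleae. These did not overlap, as was true for 3.1% of all probe sets in this direction, and the difference of 0.42 had an adjusted p of 1 from limma.

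**Figure D1:**
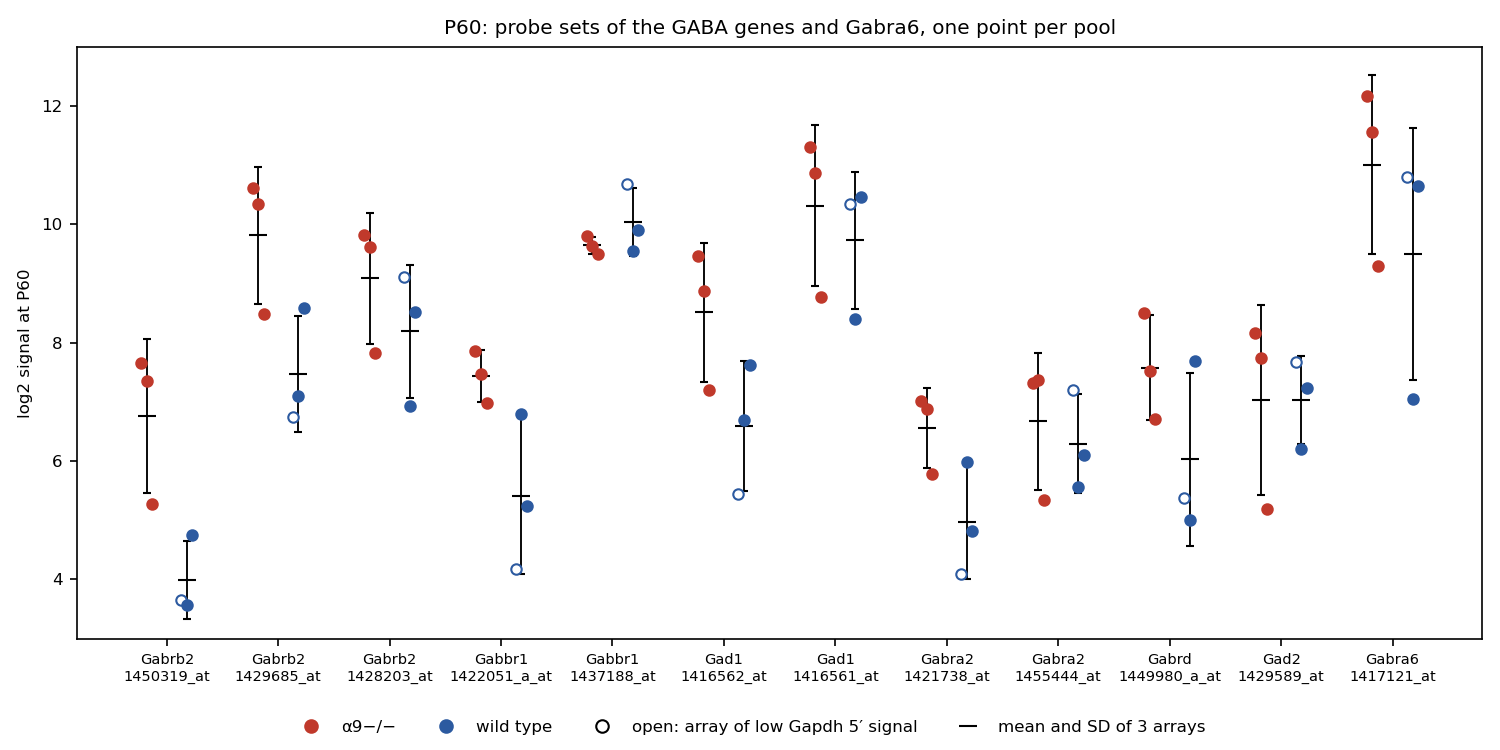
Log2 signal at P60 of 11 probe sets of the GABA genes and of Gabra6 (x axis), 1 point per pool, α9−/− in red and wild type in blue, with the mean and SD of 3 arrays. The third α9−/− pool is the lowest of its group at most probe sets, Gabra6 included, and the open point marks wild type replicate 1, which is the lowest wild type value at Gad1 1416562_at (5.44) and near the top at Gad1 1416561_at (10.34).

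Gabbr1 encodes the GABA-B receptor subunit that binds GABA. At P60, 1422051_a_at measured 7.86, 7.47 and 6.98 in α9−/− cochleae, against 4.17, 6.80 and 5.25 in wild type cochleae. The groups did not overlap, and limma gave a difference of 2.03 with a standard error of 0.63 (adjusted p = 0.776). Without the low Gapdh 5′ array it was 1.41. Its 1437188_at went the other way, with 9.80, 9.64 and 9.50 in α9−/− and 10.68, 9.56 and 9.90 in wild type cochleae (difference -0.40, adjusted p = 0.808 from limma). At 1455021_at, the probe set of highest mean signal, the difference was 0.68. No single direction described Gabbr1 at P60.

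Gabbr1 1422051_a_at was also the 1 member called at P13. Its signals there were 5.87, 7.27 and 6.13 in α9−/− and 4.92, 4.29 and 4.61 in wild type cochleae. The groups did not overlap, and limma gave a difference of 1.82 with a standard error of 0.40 (adjusted p = 0.0308). At P13, 6.5% of all tested probe sets were called higher and 0.565% lower, so 1 of 16 higher and 0 of 16 lower was near the background. The call was lost without the 2 wild type arrays of low Gapdh 5′ signal (difference 1.81, adjusted p = 0.222). It was also lost without α9−/− replicate 2 (1.39, adjusted p = 0.0791), α9−/− replicate 3 (1.96, adjusted p = 0.1) and wild type replicate 2 (1.66, adjusted p = 0.115). At the other Gabbr1 probe sets the P13 differences were -0.47, -0.32 and 0.43. The signal of 1422051_a_at minus that of 1437188_at was -6.51 to -3.86 in the 5 low Gapdh 5′ arrays and -4.65 to -1.07 in the other 19, and its part in the P13 difference was not tested.

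The 2 probe sets of Gad1, the form of glutamic acid decarboxylase that makes most of the GABA of the brain, disagreed at P60. At 1416562_at the signals were 9.47, 8.87 and 7.20 in α9−/− and 5.44, 6.70 and 7.63 in wild type cochleae, so that limma gave 1.92 ± 0.70 (standard error, adjusted p = 0.776). At 1416561_at they were 11.31, 10.87 and 8.77 in α9−/− and 10.34, 8.40 and 10.46 in wild type cochleae, so that limma gave 0.58 ± 0.76 (standard error, adjusted p = 0.841). The groups overlapped at both probe sets. The array of low Gapdh 5′ signal, wild type replicate 1, was the lowest of all on the first probe set and close to the highest wild type array on the second. Over the 5 low Gapdh 5′ arrays of all ages the first minus the second had a median of -3.29, and over the other 19 a median of -1.22. Without the low array the P60 differences were 1.35 at 1416562_at and 0.89 at 1416561_at.

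**Figure D2:**
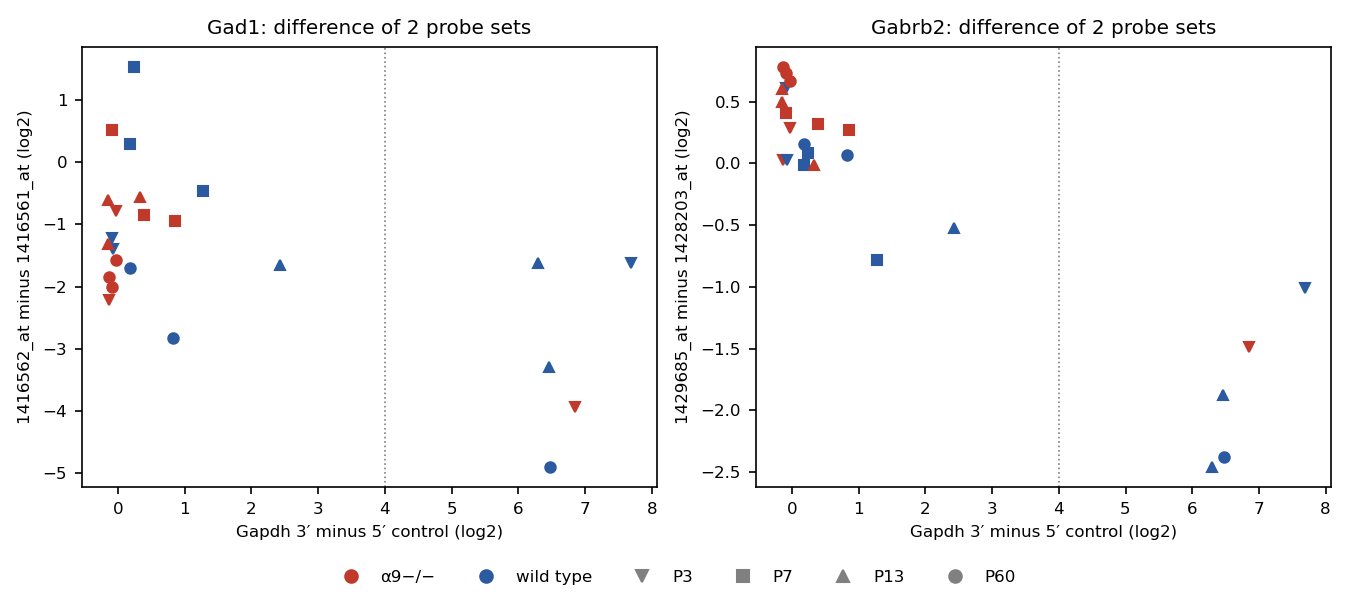
Difference in log2 signal between 2 probe sets of Gad1 (left) and of Gabrb2 (right) against the Gapdh 3′ minus 5′ control signal (log2), 1 point per array, α9−/− red and wild type blue, with symbols for age. For Gabrb2 the 5 arrays right of the dotted line at 4 lie between -2.46 and -1.01, and all others between -0.78 and 0.78. For Gad1 the ranges overlap, at -4.91 to -1.62 and -2.83 to 1.53.

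Gad2, the form tied to synaptic vesicles, differed by -0.01 at 1429589_at at P60 (standard error 0.76, adjusted p = 0.998 from limma). The signals were 8.16, 7.74 and 5.19 in α9−/− and 7.67, 6.21 and 7.23 in wild type cochleae, so the lowest and the highest pool were both α9−/−. At P13 the same probe set gave 3.29, 6.67 and 3.41 in α9−/− and 3.23, 5.81 and 5.68 in wild type cochleae. The values fell into a low set near background and a high set, with pools of both genotypes in each. At P3 it measured 5.80, 6.67 and 5.34 in α9−/− and 3.58, 5.60 and 4.45 in wild type cochleae (difference 1.39, adjusted p = 1 from limma). Forebrain neuron markers, of which 4 of 6 were measured, had a P3 list mean of 5.98 to 7.02 in α9−/− and 5.25 to 6.03 in wild type cochleae. These ranges overlapped (difference 0.91, exact permutation p = 0.2). Neurod6, a gene of forebrain excitatory neurons, was at 6.20, 7.52 and 5.77 in α9−/− and 5.16, 4.50 and 4.93 in wild type cochleae at P3, without overlap. Of all probe sets, 3.1% were without overlap in this direction at P3. The forebrain marker Tbr1, dim at P3, did not overlap either, while Neurod2 and Camk2a did. The part of such tissue in the P3 values was not tested.

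At P3 and P7, 0 of the 16 tested probe sets were called. At P3 0% of all tested probe sets were called in either direction, and at P7 0.0111% were called higher and 0% lower. With an unadjusted p under 0.05 there was 1 higher at each of these ages and none lower, namely Gad2 1429589_at at P3 and Gad1 1416561_at at P7. Of all tested probe sets, 0.865% were higher and 0.887% lower at that level at P3, and 0.887% higher and 0.593% lower at P7. The differences between ages were tested directly as the α9−/− minus wild type difference at P60 minus that at each earlier age. None of the 16 passed in limma for P60 minus P3 (lowest adjusted p = 0.878), P60 minus P7 (0.971) or P60 minus P13 (0.981). Over all tested probe sets 0%, 0.00554% and 0% passed. At an unadjusted p under 0.05 the counts were 5, 5 and 3 of the 16, beside 3.74%, 2.35% and 4.63% of all tested probe sets.

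Gabra6 was the array-by-array measure of cerebellar signal, and it was high and uneven at P60. Its 1417121_at signals were 12.18, 11.56 and 9.30 in α9−/− and 10.80, 7.05 and 10.65 in wild type cochleae. The third α9−/− pool and the second wild type pool were the lowest of their groups. Limma gave a difference of 1.52 with a standard error of 1.06 (adjusted p = 0.794), and an exact two-sided permutation test over the 6 arrays gave p = 0.4, where 0.1 is the smallest p this design allows. At P13 the order was reversed, with 4.09, 7.27 and 5.55 in α9−/− and 3.75, 9.41 and 8.95 in wild type cochleae (difference -1.73, exact permutation p = 0.5). Without wild type replicate 1 the P13 difference was -3.54 (adjusted p = 0.0457 from limma). At P3 and P7 the values of 1417121_at lay between 3.34 and 4.31, below the lower quartile of every array. The second Gabra6 probe set, 1451706_a_at, differed by 2.32 at P60 (standard error 1.05, adjusted p = 0.776 from limma). At P13 it differed by -2.04 (adjusted p = 0.131 from limma). At P3 it gave 4.21, 4.63 and 4.05 in α9−/− and 3.41, 3.25 and 3.32 in wild type cochleae. These dim values did not overlap, as was true for 3.1% of all probe sets in this direction. At P7 this probe set reached 5.13 in wild type replicate 2, where the lower quartile of that array was 5.04.

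The mean levels of the cerebellar marker lists varied between P60 pools along with Gabra6. The mean log2 signal of the 9 granule cell markers, all measured, was 8.58 to 10.46 in α9−/− and 7.40 to 9.50 in wild type cochleae at P60 (r with Gabra6 0.99, which is itself a member). At P13 it was 6.23 to 7.67 in α9−/− and 6.56 to 8.87 in wild type cochleae. Car8, a Purkinje cell gene, had 11.50, 11.17 and 9.77 in α9−/− and 9.86, 7.13 and 10.96 in wild type cochleae at P60, and the granule cell gene En2 had 9.66, 9.17 and 6.83 in α9−/− and 8.39, 4.73 and 8.39 in wild type cochleae. The Purkinje cell list, with 5 of 7 genes measured, ran from 8.58 to 10.48 in α9−/− and from 6.89 to 9.75 in wild type cochleae at P60. Single markers did not all follow, since r with Gabra6 at P60 was 0.03 for Barhl1, 0.62 for Slc1a6 and 0.72 for Fat2, and at P13 it was -0.26 for Barhl1 and 0.38 for Grm4. The forebrain neuron list ran from 5.36 to 6.39 in α9−/− and from 4.88 to 5.83 in wild type cochleae at P60. A list of 8 genes of other cochlear cells ran from 10.05 to 10.26 in α9−/− and from 10.32 to 10.69 in wild type cochleae at P60 (difference -0.29, exact permutation p = 0.1), and its part in the GABA results was not tested. The mean of the 6 hair cell markers lay between 6.96 and 7.34 in α9−/− and between 7.26 and 7.45 in wild type cochleae. In bulk RNA, fewer cells of a type and less RNA per cell cannot be told apart.

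Pool by pool, several GABA genes followed Gabra6 within each of the older ages. At P60, Pearson's r with Gabra6 over the 6 arrays was 0.98 for Gabrb2 1428203_at (Spearman's rho 1.00), 0.95 for Gad1 1416561_at (rho 0.94) and 0.91 for Gabrb2 1428204_at (rho 0.94). For Gad2 the r was 0.89 at 1421978_at and 0.76 at 1429589_at. The exact permutation p for Gabrb2 1428203_at was 0.00139, the smallest that 6 arrays allow, and its adjusted p over the 88 relations computed, 22 probe sets at 4 ages, was 0.0611. No relation passed after adjustment. Without the 2 arrays farthest from the Gabra6 median, r was 0.96 for Gabrb2 1428203_at, 0.98 for Gad1 1416561_at, 0.76 for Gabrb2 1428204_at and 0.95 for Gad2 1429589_at.

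The probe sets with the largest P60 genotype differences followed Gabra6 less closely. Their r at P60 was 0.71 for Gabrb2 1450319_at, 0.68 for Gabrb2 1429685_at, 0.54 for Gad1 1416562_at, 0.17 for Gabra2 1421738_at and 0.05 for Gabbr1 1422051_a_at (exact permutation p 0.11 to 0.925). All 5 were lowest or second lowest in wild type replicate 1, whose Gabra6 signal was high. Over the 16 probe sets that passed the variance filter the median r at P60 was 0.72, beside -0.05 over all 18041. At P13 it was 0.65 beside 0.06, and r reached 0.93 for Gabrb2 1428205_x_at and 0.91 for Gad1 1416561_at. At P3 and P7, where Gabra6 was dim, the medians were -0.07 and -0.14, and with the second Gabra6 probe set they were 0.51 and -0.22. Single probe sets still gave high values at P3, with r of 0.97 for Gabra2 1420299_at (exact permutation p = 0.00139), -0.95 for Gad1 1416562_at and -0.95 for Gabbr1 1422051_a_at. The P3 arrays of low Gapdh 5′ signal, wild type replicate 1 and α9−/− replicate 2, had the highest Gabra6 signals of that age (4.31 and 4.17). They were the lowest of their groups at Gad1 1416562_at (4.87 and 4.98) and Gabbr1 1422051_a_at (4.96 and 4.50). The part of 5′ signal in these r values was not tested. These correlations within an age mix both genotypes.

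**Figure D3:**
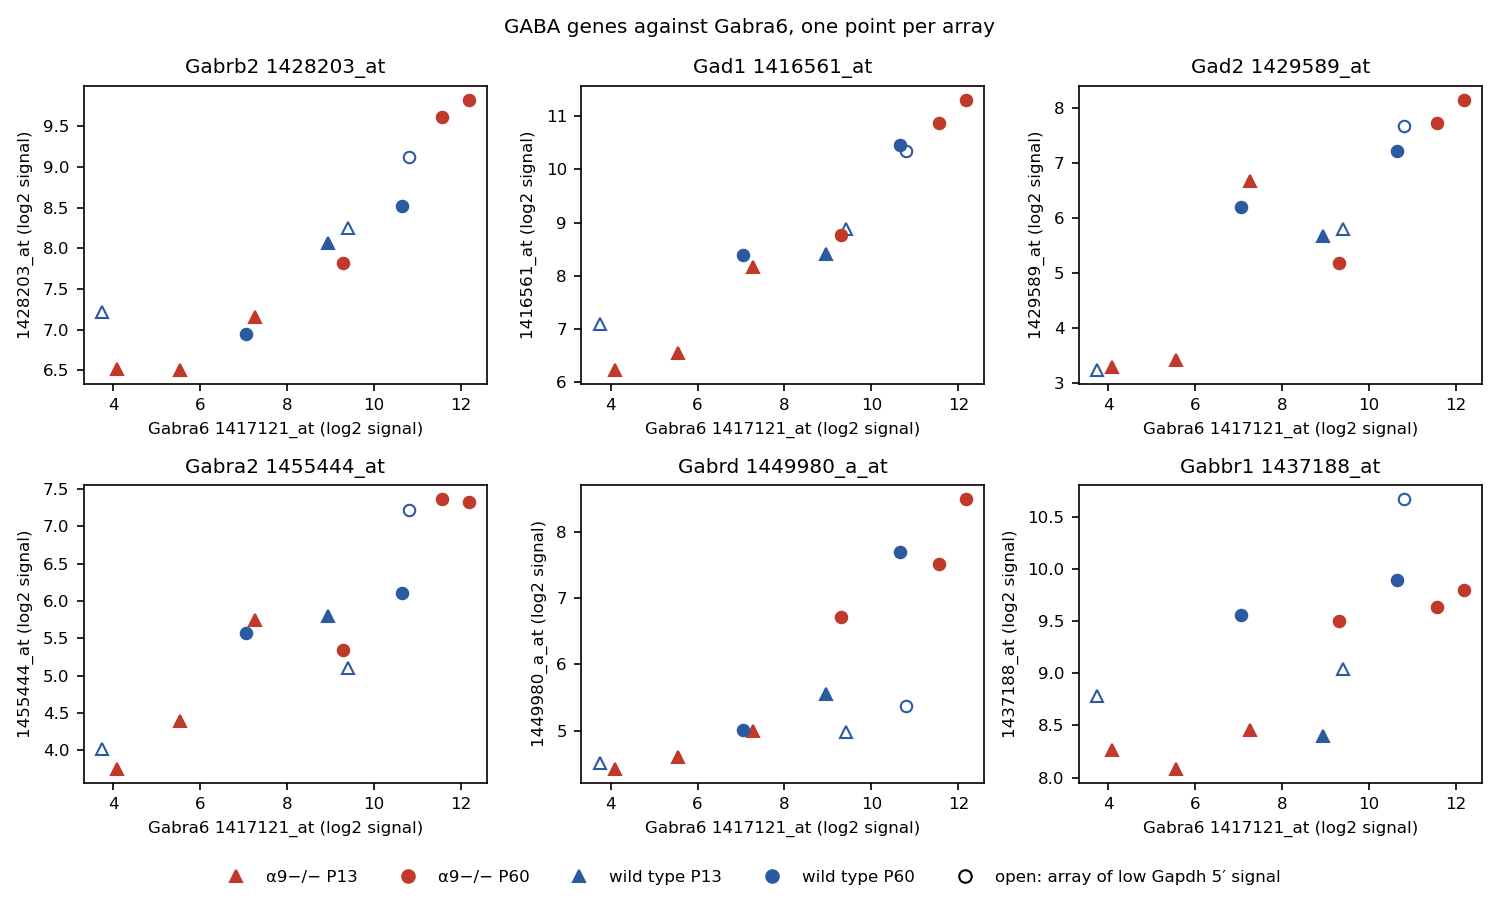
Log2 signal of 6 GABA probe sets (y axis) against Gabra6 1417121_at (x axis, log2 signal), 1 point per array at P13 (triangles) and P60 (circles), α9−/− red and wild type blue, open symbols for arrays of low Gapdh 5′ signal. Gabrb2 1428203_at and Gad1 1416561_at climb with Gabra6 in both genotypes (r at P60 0.98 and 0.95), while Gabbr1 1437188_at does so little (r at P60 0.34).

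The P60 genotype differences were fitted again with Gabra6 as a covariate. At the 3 probe sets named above for the highest r with Gabra6 over the same arrays, the difference was then 0.01 for Gabrb2 1428203_at, 0.19 for Gabrb2 1428204_at and -0.42 for Gad1 1416561_at. Since their r chose them, this is a description. Gad2 1429589_at was at -0.89 with the covariate and at -0.01 without it. Gabrd 1449980_a_at was at 0.87. The difference was 2.18 for Gabrb2 1450319_at, 1.81 for Gabrb2 1429685_at, 1.59 for Gad1 1416562_at, 1.80 for Gabra2 1421738_at and 2.46 for Gabbr1 1422051_a_at, with adjusted p values of 0.398 to 0.529 from limma. In a fit chosen after seeing the data, which also left out the low Gapdh 5′ array, they were 1.43, 0.76, 0.33, 1.17 and 1.71 in the same order, and Gabrd was at -0.22. Over the 16 probe sets the median difference was 0.08 in that fit, 0.30 with Gabra6 alone and 0.79 with neither. Leaving out the low array without the covariate gave a median of 0.96, with 15 of the 16 above 0. None of the 16 was called at P60 in any of the 4 fits. How far cerebellar tissue or low 5′ signal makes up a difference was not tested.

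**Figure D4:**
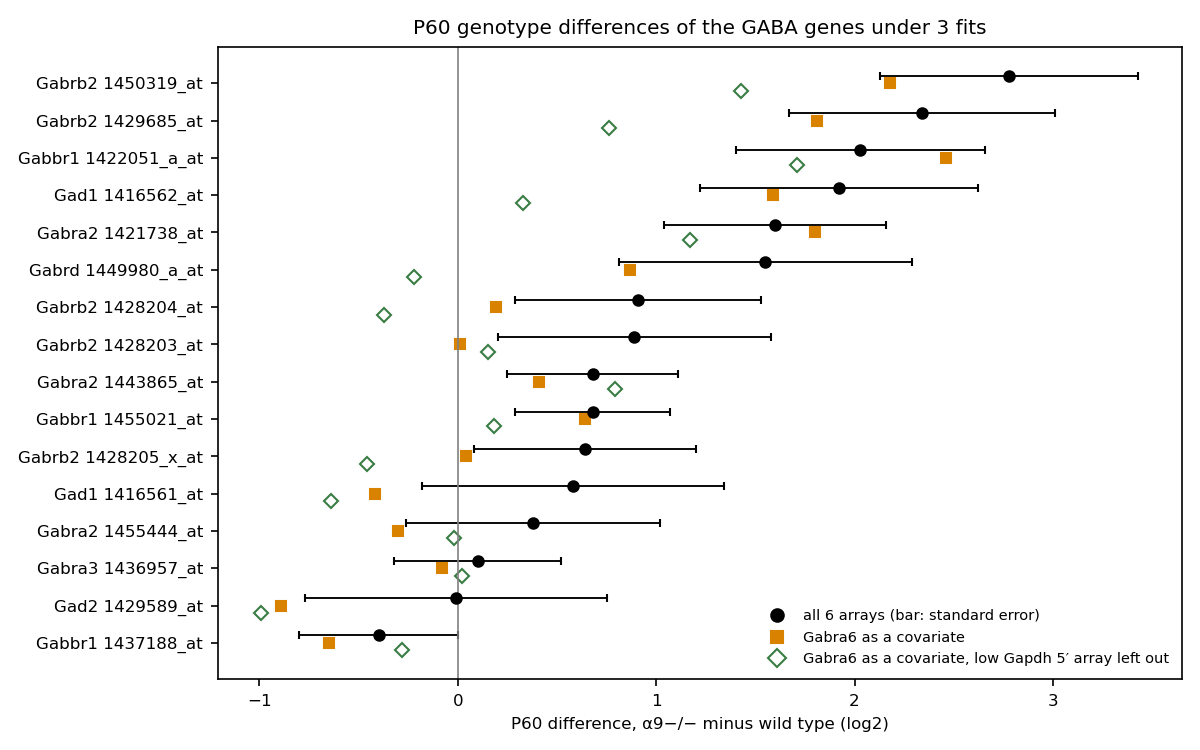
P60 difference in log2 signal, α9−/− minus wild type (x axis), of the 16 GABA probe sets tested, with all 6 arrays (black, bars are standard errors), with Gabra6 as a covariate (orange squares), and with the covariate and without the array of low Gapdh 5′ signal (open green diamonds). The median moves over these fits, which stand at 0.79, 0.30 and 0.08.

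At P13 the median difference over the 22 was -0.22, beside -0.16 over all probe sets, and 9 of 22 were above 0, against 17 of 22 at P60. Gabrb2 1428203_at had 6.51, 7.16 and 6.50 in α9−/− and 7.22, 8.25 and 8.07 in wild type cochleae, so that limma gave -1.13 ± 0.35 (standard error, adjusted p = 0.067). Gad1 1416561_at had 6.23, 8.17 and 6.55 in α9−/− and 7.09, 8.88 and 8.42 in wild type cochleae, a difference of -1.15 (adjusted p = 0.212). At both, α9−/− replicate 2 and wild type replicates 2 and 3 were the highest of their groups, as in Gabra6. With Gabra6 as a covariate these differences were -0.82 and -0.52, and Gabrb2 1429685_at was called as well (1.53, adjusted p = 0.0342 from limma). Without the covariate Gabrb2 1429685_at was at 0.86 (adjusted p = 0.368), and without the 2 low Gapdh 5′ arrays it was at -0.46 (adjusted p = 0.694). Without those arrays Gabrb2 1428203_at was at -1.35 (adjusted p = 0.199 from limma) and Gad1 1416561_at at -1.43 (adjusted p = 0.401). Counting both directions, 1 GABA probe set had all α9−/− values above and 2 had all below wild type at P13, as did 11.3% and 22.3% of all probe sets.

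By age, the mean deposited signals of the highest-signal probe sets were lowest at P7 in both genotypes for 6 of the 7 genes, and highest at P60 for all but Gabra3. On normalized signals Gabbr1 1455021_at differed by -0.02 for P13 minus P7 in wild type cochleae (standard error 0.28), so P7 was not its lowest age there. Arrays were quantile-normalized together for these tests, because array medians differed by age (6.49 to 6.61 at P3, 6.57 to 6.63 at P7, 6.73 to 6.89 at P13 and 6.56 to 6.66 at P60). The levels below are deposited signals, and their differences are of normalized signals. A probe set passed at an adjusted p under 0.05 with no threshold on the difference.

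Gad1 1416561_at illustrates this. Its α9−/− signals averaged 8.05 ± 0.82 at P3, 5.88 ± 0.33 at P7, 6.98 ± 1.04 at P13 and 10.32 ± 1.36 at P60 (SD, n = 3), and its wild type signals 7.29 ± 0.70, 5.18 ± 0.38, 8.13 ± 0.93 and 9.74 ± 1.15. P7 was the lowest age in both genotypes. The P7 minus P3 differences were -2.25 in α9−/− and -2.22 in wild type cochleae, which missed the threshold (adjusted p = 0.0731 and 0.0945 from limma). In both genotypes the P60 level was above P13, by 3.68 in α9−/− (adjusted p = 0.000947) and 1.91 in wild type cochleae (adjusted p = 0.0485).

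In α9−/− cochleae, 14 of the 16 probe sets, from 6 of the 7 genes, rose at P60 relative to P13, beside 8.52% of all tested probe sets. Gabrd 1449980_a_at rose by 3.10 (adjusted p = 0.00051), Gabrb2 1429685_at by 3.07 (adjusted p = 0.00374), Gabrb2 1428203_at by 2.68 (adjusted p = 0.00113) and Gad2 1429589_at by 2.84 (adjusted p = 0.0271). The exceptions were Gabra3 1436957_at (0.32, adjusted p = 0.673) and Gabbr1 1422051_a_at (1.26, adjusted p = 0.217). The variance filter used these same arrays, and a change between ages adds to that variance, so the counts of 16 depend on this selection. In the limma fit over all probe sets, 3 probe sets no longer passed in α9−/−. They were Gad2 1429589_at (adjusted p = 0.0522), Gabra2 1443865_at (adjusted p = 0.0534) and Gabrb2 1450319_at (adjusted p = 0.0747). In wild type cochleae 4 of 16 rose, beside 10% of all, namely Gabbr1 1437188_at by 1.65 (adjusted p = 0.00434), Gabbr1 1455021_at by 1.09, Gad1 1416561_at by 1.91 and Gabra2 1455444_at by 1.65. The genotype difference in this step was tested above and passed for no member. Relative to P3, 11 of 16 were higher at P60 in α9−/−, beside 14.2%, and 5 of 16 in wild type cochleae, beside 15.6%. These counts were 4 without P60 α9−/− replicate 1 and 6 without P60 α9−/− replicate 2 in α9−/−, and 2 without P60 wild type replicate 3 and 3 without P60 wild type replicate 1 or P3 wild type replicate 3 in wild type cochleae.

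For P60 minus P13, Gabra6 1417121_at rose by 5.74 in α9−/− cochleae (adjusted p = 0.00186 from limma). In wild type cochleae it differed by 2.53 (adjusted p = 0.12), which did not pass. At 1451706_a_at the differences were 4.99 in α9−/− (adjusted p = 0.000804) and 0.73 in wild type cochleae (adjusted p = 0.59). With Gabra6 as a covariate, added after seeing the data, 0 of 16 passed for P60 minus P13 in α9−/− and 1 of 16 in wild type cochleae, which was Gabbr1 1437188_at (1.48, adjusted p = 0.0239 from limma). Gabra6 itself follows age, so this fit leaves little independent information on age. Counts also moved with single arrays, with 7 without P60 α9−/− replicate 1, 8 without P13 α9−/− replicate 1 and 9 without P60 α9−/− replicate 2, in place of 14. The wild type count of 4 was 1 without P13 wild type replicate 1 or P60 wild type replicate 3, and 2 without any one of 11 other arrays.

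**Figure D5:**
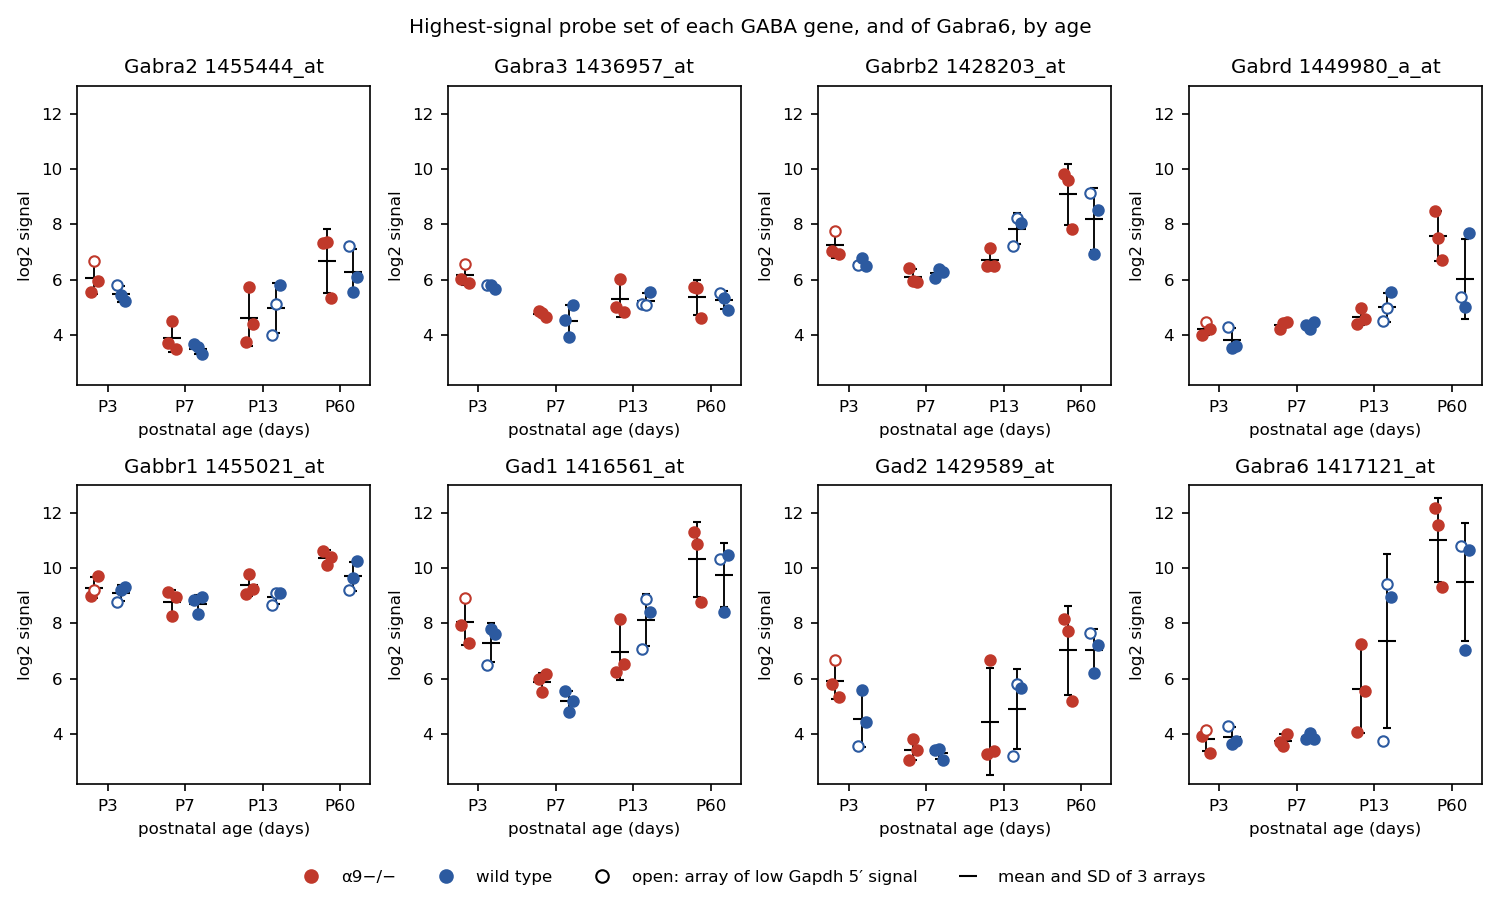
Deposited log2 signal (y axis) by postnatal age (x axis) of the probe set of highest mean signal for each of the 7 GABA genes and of Gabra6, 1 point per array, α9−/− red and left of wild type in blue, with mean and SD of 3 arrays and open points for low Gapdh 5′ signal. In both genotypes the group means of deposited signals are lowest at P7 for all 7 genes but Gabrd and highest at P60 for all but Gabra3, and Gabra6 reaches at most 4.31 up to P7.

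From P3 to P7, Gabra2 1455444_at fell by 2.33 in α9−/− (adjusted p = 0.034 from limma) and Gabra3 1436957_at fell by 1.54 (adjusted p = 0.024), so 2 of 16 were lower, beside 2.11% of all tested probe sets. In wild type cochleae their differences were -2.14 (adjusted p = 0.0585) and -1.36 (adjusted p = 0.0509), and 0 of 16 passed, beside 1.09%. Gabra6 1417121_at was below the lower quartile at both of these ages, and with it as a covariate both genes passed in wild type too (Gabra2 adjusted p = 0.00673, Gabra3 adjusted p = 0.0359). The α9−/− calls were lost without the low Gapdh 5′ arrays (adjusted p = 0.0668 and 0.0869), at differences of -2.01 and -1.33. The forebrain neuron list moved in the same step, with means of 4.89 at P7 and 6.43 at P3 in α9−/− and of 4.86 at P7 and 5.52 at P3 in wild type cochleae, and Neurod6 was at 2.88 to 3.32 in all P7 arrays. The part of this in the P3 to P7 differences was not tested. Of the 2 calls, 0 were left without P3 α9−/− replicate 2 or any single P7 α9−/− array, and 1 without P3 α9−/− replicate 3.

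From P7 to P13, counts were below or near the background. In α9−/− 0 of 16 rose, beside 5% of all tested probe sets. In wild type cochleae 2 of 16 rose, beside 17.9%, which were Gad1 1416561_at by 2.78 (adjusted p = 0.00575) and Gabrb2 1428203_at by 1.40 (adjusted p = 0.042 from limma). With Gabra6 as a covariate they were at 1.34 and 0.39, and neither passed. Without any single P7 wild type array, or P13 wild type replicate 2 or 3, 1 of the 2 passed. Gabra6 1417121_at rose in wild type cochleae in this step, by 3.21 (adjusted p = 0.0416), a call that was lost among 1 probe set per gene (adjusted p = 0.0533). Its 1451706_a_at differed by 2.09 (adjusted p = 0.0806 from limma). The difference in this step between genotypes was not tested.

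Of 33 other genes of GABA receptors, transport, breakdown and synaptic anchoring, 25 were measured, each at its probe set of highest mean signal. Between genotypes 0 of the 25 passed at any age. Over all genes the passing shares were 0% higher and 0.0165% lower at P3, 1.09% and 2.92% at P13, and 0% either way at P7 and P60. Their median P60 difference was 0.02, with 13 of 25 above 0. Slc12a5, the chloride exporter KCC2 of neurons, had 11.43, 10.97 and 8.55 in α9−/− and 10.16, 8.60 and 10.13 in wild type cochleae at P60, a difference of 0.69 (adjusted p = 0.939 from limma).

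Between ages, in α9−/− 5 of 25 rose at P60 relative to P13, beside 6.41% of all genes. These were Gabra6, Slc12a5 by 2.70 (adjusted p = 0.00339), Kctd8 by 1.29, an auxiliary subunit of GABA-B receptors, Aldh5a1 by 0.91, which acts in GABA breakdown, and Gphn by 0.57, the anchoring protein gephyrin. In wild type cochleae 4 of 25 rose, beside 6.91%, namely Gabarapl1 by 1.29, Kctd8 by 1.10, Slc6a13 by 1.04, a GABA transporter, and Slc12a2 by 0.87, the chloride importer NKCC1. From P3 to P7, 3 of 25 fell in α9−/−, beside 1.82%, which were the subunit genes Gabra5 by 2.70, Gabrg1 by 2.21 and Gabrb1 by 1.93. In wild type cochleae 0 of 25 passed in this step, beside 1.19% of all genes lower, and the same 3 genes had differences of -2.19 (adjusted p = 0.0622 from limma), -1.58 and -1.20. The difference between genotypes in this step was not tested.

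The genes whose course over all 24 arrays was most like that of a GABA gene are named 3 to a gene. For Gabrd they were Slc1a6 (Pearson's r 0.954), a glutamate transporter of Purkinje cells, Cacna1a (0.951), a calcium channel, and Cbln3 (0.944), a granule cell gene. For Gabrb2 they were Slc12a5 (0.968), Diras2 (0.963) and Nrxn3 (0.961), and for Gad1 Elmod1 (0.969), Pclo (0.968) and Rims2 (0.965), the last a pair of presynaptic scaffold genes. For Gad2 they were Gabrb1 (0.959), Fgf14 (0.945) and Rfx4 (0.934), and for Gabra2 Fstl5 (0.961), Gabrb1 (0.954) and Sgip1 (0.942). For Gabbr1 they were Kcnt1 (0.933), Olfm1 (0.928) and Clip3 (0.927), and for Gabra3 Syt16 (0.915), Celf5 (0.879) and Pcdh10 (0.878). The r with Gabra6 over the same arrays was 0.89 for Gabrb2 and Gabrd, 0.85 for Gad1, 0.78 for Gad2, 0.69 for Gabbr1, 0.67 for Gabra2 and 0.12 for Gabra3. These values describe 24 arrays that share age steps, and carry no test.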

How the data were processed

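RNA of pooled cochleae from 12 α9−/− and 12 wild type pools had been hybridized to Affymetrix mouse arrays. The deposited log2 signals were made by the authors in R in the AffyPLM package, which corrected background by RMA, normalized by quantiles and summarized probes by Tukey biweight. Probe sets of 1 gene symbol were named from the platform annotation, and positions and promoters came from RefSeq on GRCm38.p6. The 7 genes, the 33 other genes of the pathway and the 8 marker lists were chosen with earlier results of these data known.

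Genotypes were compared within an age with limma 3.58.1 in R 4.3.3, and p values were adjusted by Benjamini-Hochberg among the most variable 40% of probe sets, the filter of the study's methods. In the main fits, probe sets outside it, 6 of the 22, had no test of genotype or age. Ages were compared after quantile normalization over all arrays, in 1 fit of 8 group means. The fits were tested on simulated data. Pools were the replicates, and their number limits the precision. All probe sets of the 7 genes were named. Genes of other lists were named where they passed or varied most at P60, and the nearest genes by Pearson's r. Slc26a5, Otof, the printed Chrna9 values, Barhl1, Fat2 and Grm4 were chosen after their values were seen. Correlations with Gabra6 used exact permutation in Python 3.11.15. Alternatives covered the filter, threshold, normalization, array weights, replicate block, a fit of all arrays, low Gapdh 5′ arrays, Gabra6 as a covariate and leaving out each array.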

Additional observations from a re-analysis of the deposited data

Results flagged for a closer look

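Gabrb2 1428203_at had all α9−/− values above wild type at P3 (7.04, 7.76 and 6.95 against 6.52, 6.78 and 6.49, difference 0.66) and all below wild type at P13 (6.51, 7.16 and 6.50 against 7.22, 8.25 and 8.07, difference -1.13). The α9−/− pools thus lay above wild type at one age and below it at the other, in different animals. Of all probe sets, 3.1% had every α9−/− value above at P3 and 22.3% every α9−/− value below at P13. The difference between P3 and P13 was not tested, and neither age passed in limma (adjusted p = 1 and 0.067). Gabra6 1417121_at was below the lower quartile of every array at P3 and had r = 0.82 with this probe set over the P13 arrays.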

How the results depend on the processing

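At P13 the count of called GABA probe sets, 1, was 0 with a replicate block, with all arrays in one fit, without low Gapdh 5′ arrays and with 1 probe set per gene, 2 with Gabra6 as a covariate, and 0 to 1 with each array left out. Of 12 same-numbered pairs of pools, 7 had deviations correlated above 0.1 (r -0.699 to 0.625). Pairs of different number had r of -0.713 to 0.794. Whether replicate numbers pair the pools was not tested. With the replicate block Gabbr1 1422051_a_at had an adjusted p of 0.0515 from limma. At P60 the count, 0, was 2 with the variance filter among the arrays of the age, which are also the arrays tested, and 1 with array weights. Counts at P3 and P7 stayed at 0 in all 17 alternatives each, as did those of the pathway list in all 9 and of the differences between ages in all 29.

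For Gabra6 at P13, leaving out each array gave -3.54 to -0.71 at 1417121_at, called without wild type replicate 1 (-3.54), and -2.98 to -1.48 at 1451706_a_at, called without wild type replicate 1 (-2.98), with array weights (-2.27) and with the replicate block (-2.04). At P60 1451706_a_at was called with the filter among the arrays of the age (2.32), which are also the arrays tested.

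Between ages, the 2 lower at P7 than P3 in α9−/− became 1 without the variance filter, 0 without low Gapdh 5′ arrays, 4 with Gabra6 as a covariate and 0 to 3 with arrays left out. In wild type the 0 became 1 without low Gapdh 5′ arrays, 3 with the covariate and 0 to 2. The 2 higher at P13 than P7 in wild type became 1, 1 and 0 with no filter, without low arrays and with the covariate, and 1 to 3. For P60 above P13, the 14 in α9−/− became 0 with the covariate and 7 to 14, and the 4 in wild type became 1 with deposited values, 2 with centred medians, 2 without filter, 1 without low arrays, 1 with the covariate and 1 to 6. Without the filter Gad2 1429589_at, Gabra2 1443865_at and Gabrb2 1450319_at no longer passed in α9−/− for this step. For P60 above P3, the 11 in α9−/− became 0 with the covariate and 4 to 11, and the 5 in wild type became 2 without low arrays, 0 with the covariate and 2 to 7. The cause was not tested. The covariate in the age fits and the arrays left out there were added after seeing the data. Differences that were not called could change sign, as Gad1 1416561_at at P60 did with the covariate (-0.42). Gabrb2 1429685_at at P13, called with the covariate (1.53), was at -0.46 without the low Gapdh 5′ arrays.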
